A study of Mus musculus with 24 samples.

Results

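Integrins are the adhesion receptors by which leukocytes hold on to vessel walls, to each other and to matrix, and the mRNA levels of 9 integrin genes were described here in CD11b+ cells of mice. The genes were Itgam, which encodes CD11b itself, its partner Itgb2, the other genes of the beta-2 family (Itgax, Itgad and Itgal), and Itga4, Itgb1, Itgb7 and Itgb3. They were taken by gene name, as 9 of the 32451 genes or transcripts on the array, and 15 probes measured them. The brightest probe of each gene is given unless another is named. All 15 probes were well above background on each of 22 arrays, so no member was lost to a filter on dim signals.

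The arrays were one-colour Agilent arrays of RNA from CD11b+ cells that were isolated from spleen or from bone marrow of male Balb/C mice aged 10 weeks, taken from control mice or 1, 2 or 4 weeks after acute myocardial infarction (MI). The mice were wild type (WT), HDC-KO, which lack the histamine-forming enzyme histidine decarboxylase, or STAT6-KO, which lack a transcription factor of interleukin-4 and interleukin-13 signalling. The knockouts were not stated to be restricted to any cell type. Each of the 24 conditions had 1 array, with cells pooled from 5 mice, so that 22 complete arrays (11 of spleen, 11 of bone marrow) were used and time points stood in for replicates. The tables of the HDC-KO spleen control and the STAT6-KO bone marrow MI 1 week arrays held only part of the spots and were not used. Levels are log2 signals relative to the 75th percentile of the same array, so that a difference of 1 is a 2-fold change and a level below 0 lies under that percentile.

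An integrin is a pair of an alpha and a beta chain, and neither chain reaches the cell surface well without the other. The beta-2 chain, CD18, pairs with CD11a, CD11b, CD11c and CD11d, and these receptors carry out firm adhesion, complement-dependent uptake of particles and contact between leukocytes. The alpha-4 chain pairs with beta-1 or beta-7 to bind VCAM-1, fibronectin or the gut addressin MAdCAM-1, and in bone marrow and spleen it helps to retain blood cells. The beta-3 chain pairs with alpha-IIb on platelets and with alpha-V on macrophages and other cells.

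Itgam, Itgax and Itgad lie next to each other on chromosome 7, in this order, with no other protein-coding gene of the RefSeq table between them. RefSeq promoter windows were at hand for 5 of the 9 genes (Itgam, Itgax, Itga4, Itgb1 and Itgb7). The 250 bases before the start of Itgam (chr7:128062390-128062639, plus strand) and Itgax (chr7:128129300-128129549, plus strand) of build GRCm38.p6 are shown because these neighbours lay in opposite directions between the tissues. Capitals mark GAGGAA or its reverse complement TTCCTC, the purine-rich core bound by PU.1, a transcription factor of myeloid cells.
Itgam: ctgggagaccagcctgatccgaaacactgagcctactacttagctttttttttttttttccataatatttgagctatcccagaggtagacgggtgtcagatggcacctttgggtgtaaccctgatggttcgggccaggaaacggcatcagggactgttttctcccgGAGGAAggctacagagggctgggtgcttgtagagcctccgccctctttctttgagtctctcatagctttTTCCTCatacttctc
Itgax: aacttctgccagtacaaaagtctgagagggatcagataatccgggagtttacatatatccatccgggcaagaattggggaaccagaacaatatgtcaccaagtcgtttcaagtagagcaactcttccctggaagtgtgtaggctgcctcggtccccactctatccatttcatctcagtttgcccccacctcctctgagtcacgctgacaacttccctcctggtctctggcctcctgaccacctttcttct
The Itgam window held 1 match on each strand, at 84 and 15 bases before the start, and the Itgax window held 0. Among the other 3 members, Itgb1 held 1 match and Itga4 and Itgb7 held 0. Of all 32851 promoter windows of this length, 23.3% held the motif on either strand. These matches describe the sequence and not binding.

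The targeted genes were checked first. Hdc lay between 1.67 and 2.78 on the 7 HDC-KO arrays and between 4.12 and 5.51 on the other 15. Stat6 was below the WT array of the same tissue and time in 21 of 21 probe values of STAT6-KO. The spleen array labelled as STAT6-KO at 4 weeks after MI nevertheless fell within the range of the WT spleen arrays on 2 of 3 Stat6 probes (0.73 and 0.20). On the brightest Stat6 probe it lay below them (2.12). There the STAT6-KO spleen array of 2 weeks lay within the WT range (2.44, against 2.38 to 2.90). Estimates without the array of 4 weeks, called doubtful here, are given below for the spleen and tissue comparisons. Slides were inferred, by taking arrays with the same scan date as 1 slide, which gave 6 groups of arrays, called slides here. Each held 1 genotype of 1 tissue, with the time points in the same order. A difference between genotypes within a tissue, or between spleen and bone marrow, may thus include a difference between these groups.

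The cells of both tissues carried myeloid RNA, with other cell types beside it. The 9 neutrophil granule genes (Elane, Mpo and others) and the 8 measured macrophage genes (Adgre1, Mertk and others) were above background on nearly every array, and so were the 7 B cell genes and the 8 T cell genes. The summed linear level of the macrophage genes, in multiples of the 75th percentile, was 50.7 to 121 in spleen and 8.7 to 27.0 in bone marrow. That of the neutrophil granule genes was 144 to 354 in spleen and 387 to 683 in bone marrow. In these bulk samples, fewer cells of a type and less RNA per cell cannot be told apart.

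The first comparison asked how spleen-derived CD11b+ cells differed from bone marrow-derived ones. The mRNAs of CD11b and its partner chain were lower in spleen, and so was that of the beta-3 chain on its brightest probe. The mRNAs of CD11c and CD11d, chains of the other CD11 receptors found on macrophages and dendritic cells, were higher in spleen. So were those of the alpha-4, beta-1 and beta-7 chains. Of the 9 members, 8 passed limma at an adjusted p under 0.05 (5 higher in spleen, 3 lower), in a comparison where 54.5% of the 27659 genes tested passed. Of all genes tested, 22.4% were higher in spleen and 32.1% lower. The median difference of the 9 members was 0.75 and that of all genes tested was -0.17. The arrays of the tissues did not overlap for 6 of the 9 members, against 13.2% of all genes.

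**Figure D1:**
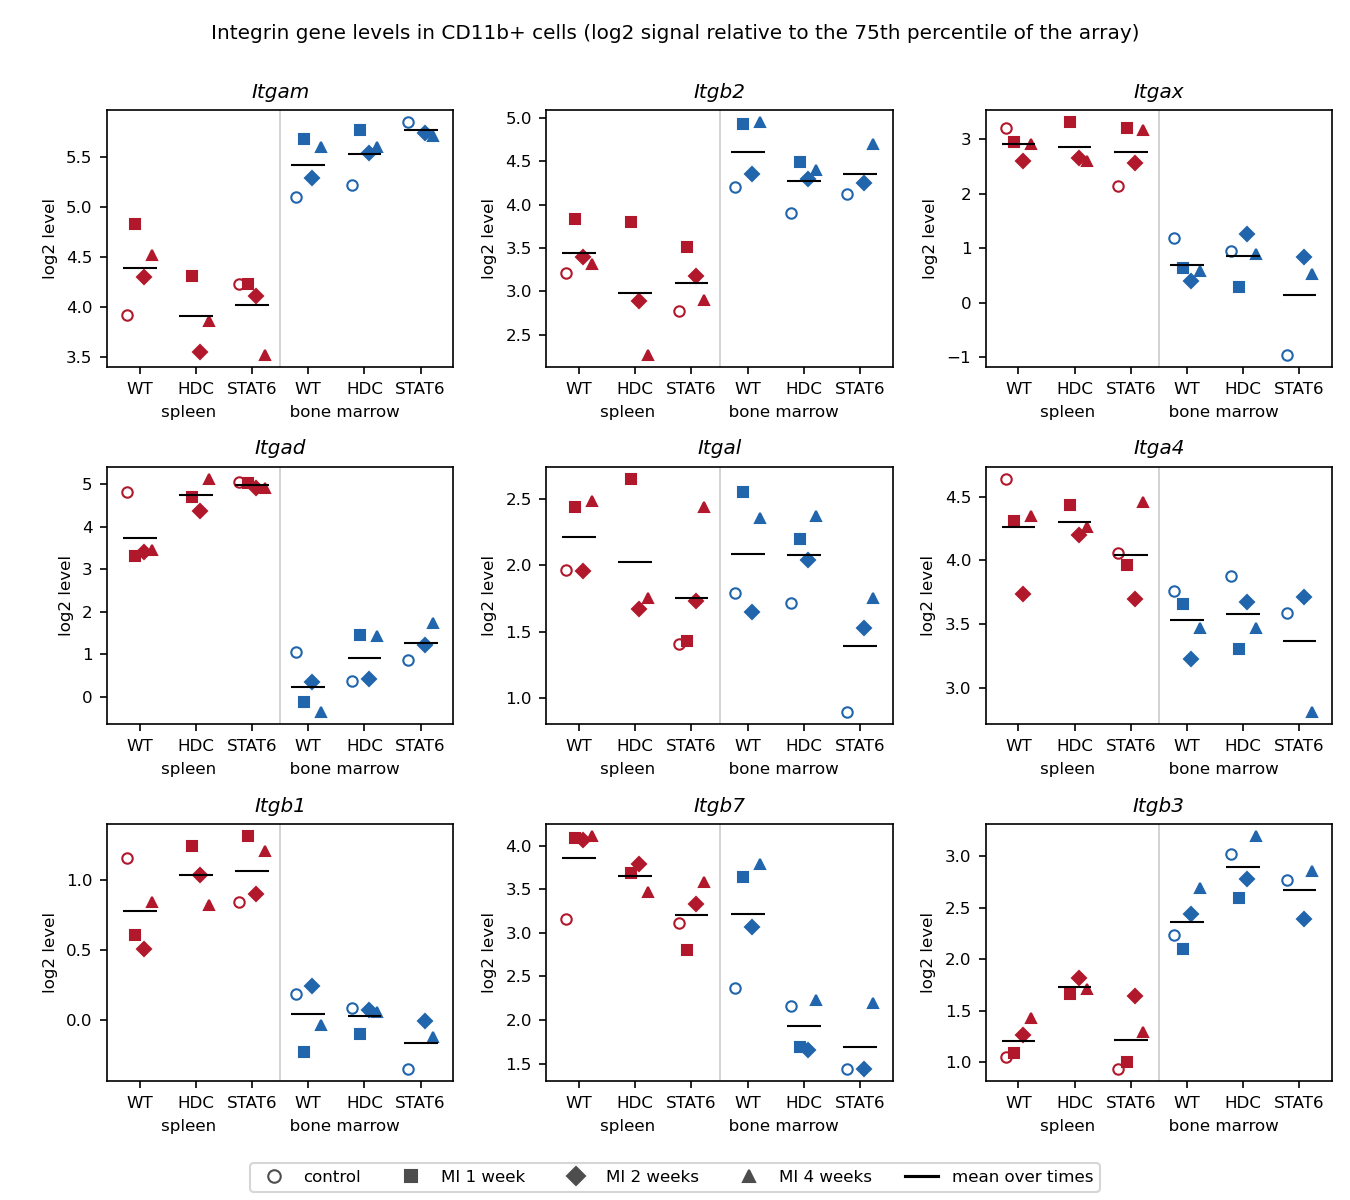
Levels of the 9 members (vertical axes, log2 signal relative to the 75th percentile of each array) by tissue and genotype (horizontal axes, HDC and STAT6 for the knockouts). Each point is 1 array, the symbol gives the time point and the black line the mean over time points. The spleen arrays of Itgam lie between 3.52 and 4.83, all below the bone marrow arrays, and those of Itgad between 3.30 and 5.14, all above.

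Itgam was the member with the clearest fall among the beta-2 receptors. Its level was 3.52 to 4.83 in spleen (median 4.23) and 5.10 to 5.85 in bone marrow (median 5.60). Every bone marrow array lay above every spleen array. Over 10 pairs of arrays of the same genotype and time, spleen was lower by a mean of 2.77-fold (log2 difference -1.47 ± 0.44, SD, n = 10 pairs, limma adjusted p = 5.42e-06). The difference was -1.51 ± 0.37 and -2.02 ± 0.41 on the other 2 Itgam probes, and spleen was lower in 10 of 10 pairs on each of the 3 probes. The CD11b chain itself was the handle by which the cells were isolated, so its mRNA was present in both tissues by design.

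Itgb2, the shared beta-2 chain, lay the same way. It was 2.26 to 3.83 in spleen (median 3.22) and 3.91 to 4.96 in bone marrow (median 4.36), again with no overlap. The log2 difference was -1.31 ± 0.44 (n = 10 pairs, limma adjusted p = 1.27e-05), which is 2.49-fold lower in spleen. Itgb2 followed Itgam across the 22 arrays with a Pearson r of 0.90, and with 0.59 after the mean of each tissue was subtracted, as a description of arrays that share slides and scaling.

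Itgad, which encodes the CD11d chain known from splenic red pulp macrophages, had the largest tissue difference of the 9. It was 3.30 to 5.14 in spleen (median 4.82) and -0.37 to 1.75 in bone marrow (median 0.86). The lowest spleen array was above the highest bone marrow array. The difference was 3.61 ± 0.37, or 12.2-fold (n = 10 pairs, limma adjusted p = 3.47e-09). Between single pairs it ranged from 3.07 to 4.21.

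Itgax, which encodes CD11c, a chain abundant on dendritic cells and some macrophages, was 2.14 to 3.32 in spleen (median 2.92) and -0.97 to 1.27 in bone marrow (median 0.63). It did not overlap between the tissues either. The difference was 2.25 ± 0.57, or 4.76-fold (n = 10 pairs, limma adjusted p = 9.65e-07). Itgax and Itgam, neighbours in the genome, therefore differed in opposite directions on these arrays.

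Itgal, the CD11a chain of LFA-1 found on most leukocytes, was the member that did not pass. It was 1.41 to 2.65 in spleen (median 1.96) and 0.89 to 2.55 in bone marrow (median 1.79), and the tissues overlapped over most of their range. The difference was 0.14 (SE 0.13, limma adjusted p = 0.412), with spleen higher in 7 of 10 pairs. The second Itgal probe gave 0.21 (SE 0.12, limma adjusted p = 0.160).

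The alpha-4 group was higher in spleen. Itgb1, the widely used beta-1 chain, was 0.51 to 1.32 in spleen and -0.35 to 0.24 in bone marrow, with no overlap. Its difference was 0.95 ± 0.31 (limma adjusted p = 2.64e-05), and 1.53 ± 0.35 on the second probe. Itgb7, the beta chain used for homing to the gut, was 2.80 to 4.12 in spleen (median 3.59) and 1.43 to 3.79 in bone marrow (median 2.20). Those ranges overlapped, through the WT bone marrow arrays, yet spleen was higher in 10 of 10 pairs (1.29 ± 0.64, limma adjusted p = 0.000139). Itga4, the alpha chain that pairs with both, was 3.69 to 4.64 in spleen and 2.80 to 3.88 in bone marrow. The Itga4 ranges met at the edges, and spleen was higher in 9 of 10 pairs (0.75 ± 0.45, limma adjusted p = 0.000877, 1.07 ± 0.82 on the second probe).

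Itgb3, the beta chain of the platelet fibrinogen receptor, was 0.93 to 1.82 in spleen and 2.10 to 3.20 in bone marrow on its brightest probe. No array overlapped, and the difference was -1.22 ± 0.33 (limma adjusted p = 5.27e-06). The second probe of Itgb3 gave -0.26 ± 0.65, lower in 7 of 10 pairs, and did not pass (limma adjusted p = 0.277), so the call rested on the probe used. The 7 megakaryocyte and platelet genes listed, such as Pf4 (-1.98), were all lower in spleen with a limma adjusted p under 0.05, and their summed level was 2.44 to 7.97 in spleen and 8.93 to 41.8 in bone marrow. Their part in the Itgb3 result was not tested.

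**Figure D2:**
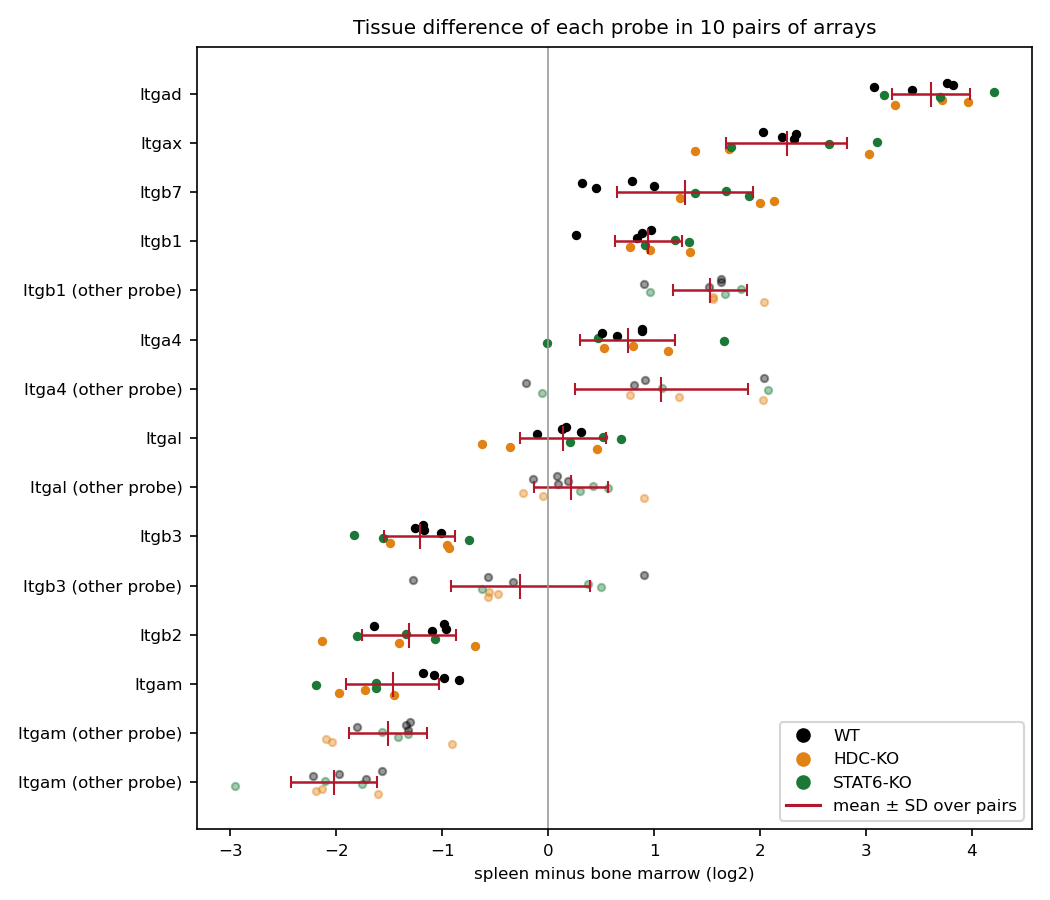
Spleen minus bone marrow difference (horizontal axis, log2) of each of the 15 probes, with 1 point for each of 10 pairs of arrays coloured by genotype and the mean ± SD in red. Itgad is at 3.61 and Itgam at -1.47, while Itgal is at 0.14 and the second Itgb3 probe at -0.26.

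In an exact permutation test that flips the signs of the 10 pair differences, two-sided, the result was p = 0.00195, the smallest such a test can give, for Itgam, Itgb2, Itgax, Itgad, Itgb1, Itgb7 and Itgb3. It was 0.00391 for Itga4 and 0.295 for Itgal. The test takes the 10 pairs as independent, although pairs of the same genotype came from the same slides. Without the doubtful STAT6-KO spleen array of 4 weeks, 8 of 9 members passed, with Itgam at -1.39, Itgad at 3.66 and Itgb7 at 1.28.

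Markers of several cell types also differed between the tissues, where 22.4% of all genes tested were higher in spleen and 32.1% lower. All 8 measured macrophage genes were higher in spleen (Adgre1 2.03, Spic 3.72), and all 9 neutrophil granule genes were lower (Elane -3.62, Camp -0.45), each with a limma adjusted p under 0.05. Of the dendritic cell genes 4 of 6 were higher, of the B cell genes 6 of 7, of the NK cell genes 4 of 6 and of the T cell genes 6 of 8, with Cd3d lower (-1.50). Of the monocyte genes 3 of 4 were higher, of the plasma cell genes 4 of 5 and of the erythroid genes 2 of 6. Of the mature neutrophil genes 4 of 6 were lower, and of the basophil and mast cell genes 5 of 5. Of the 5 eosinophil genes, 1 was higher and 2 were lower. Their part in the integrin differences was not tested.

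The remaining genes of the integrin pathway were described from lists of 18 other subunits, 17 ligands, 12 activators, 5 inhibitors and 19 signalling genes. Among the other subunits, 6 of the 14 tested were higher in spleen and 4 lower, where 22.4% of all genes were higher and 32.1% lower. Itga9, the alpha-9 chain, was higher by 3.35 (SE 0.21, limma adjusted p = 2.45e-07) and Itgb5, the beta-5 chain, by 1.86 (SE 0.16, limma adjusted p = 2.02e-06). Itga2b, which pairs with Itgb3 on platelets, was at -1.49, and Itgb2l, a relative of Itgb2, was at -2.84. Itga10 and Itgae had no named probe, and Itgb6 and Itgb8 were too dim to test.

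The ligands were split between the tissues, with 5 of 16 higher in spleen and 5 lower, against 22.4% and 32.1% of all genes. Icam1 (2.08) and Vcam1 (2.04), ligands of the beta-2 and alpha-4 integrins, were higher. Spp1 (-2.21) and Thbs1 (-2.29), matrix proteins bound by beta-3 integrins, and C3 (-1.13), whose fragment iC3b is bound by CD11b, were lower. The median of the ligands was -0.14, near the median of -0.17 over all genes.

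Of 12 genes that turn integrins on from inside the cell, 6 were lower in spleen, 2 were higher and 4 did not pass. Their median was -0.37. Of all genes, 32.1% were lower and 22.4% higher, which also holds beside the inhibitors and downstream genes that follow. Fermt3 (-1.24), the kindlin of blood cells, and Tln1 (-0.73), talin, bind the beta tail, and both were lower. Skap1, an adaptor best known from T cells, was higher by 4.42. Of the 5 inhibitors, Flna (-0.65) and Itgb1bp1 (-0.42) were lower and Dok1 (0.63) was higher. Of the 19 genes that act downstream of bound integrins, 13 were lower in spleen and 1, Lcp2 (0.52), was higher. Vcl (-2.00), Pxn (-1.94), Ilk (-1.56) and Parvg (-1.30), which link integrins to actin, were among the lower ones. The median of this list was -0.48.

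**Figure D3:**
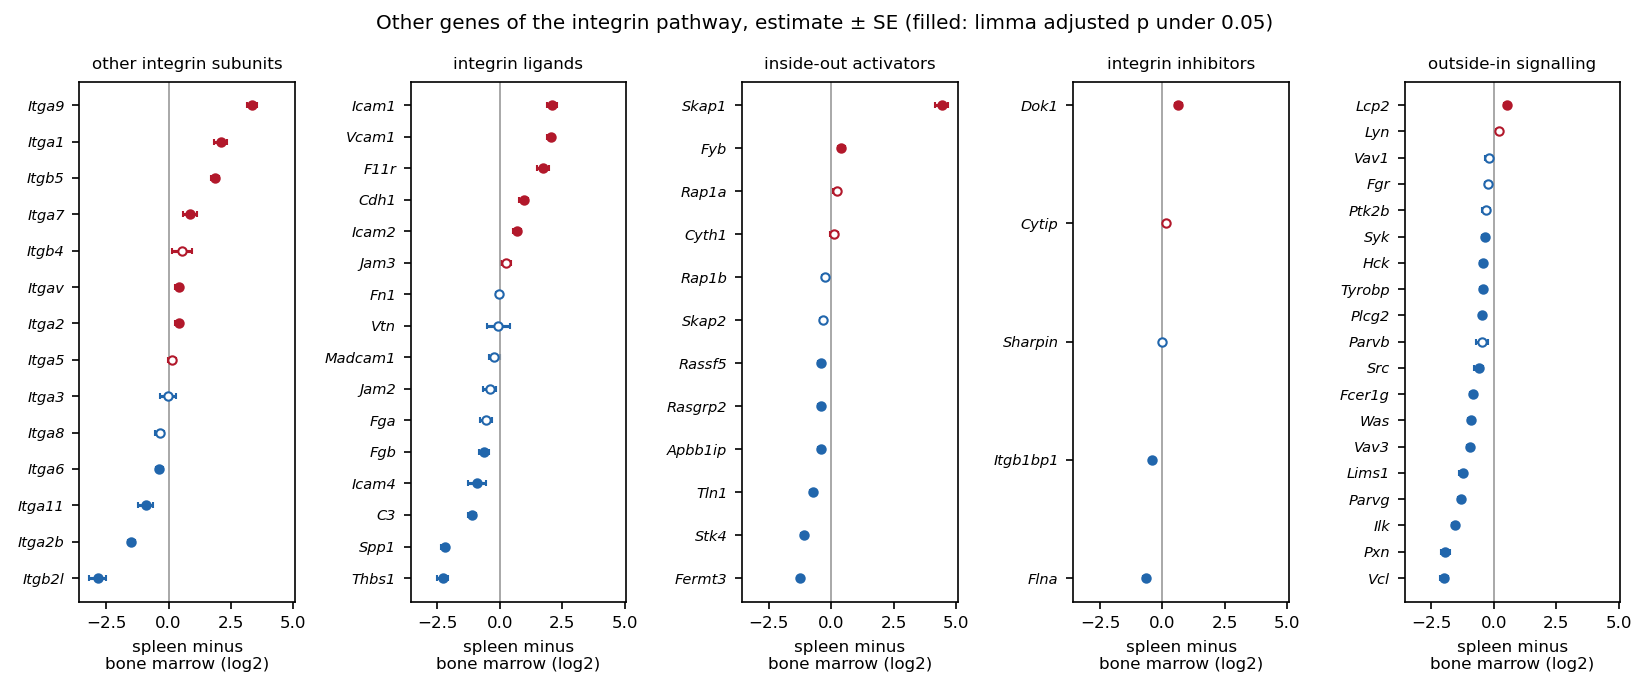
Spleen minus bone marrow estimate ± SE (horizontal axes, log2) of the other integrin pathway genes in 5 lists, with filled points for a limma adjusted p under 0.05. In the downstream list 13 of 19 genes lie on the lower side with filled points, against 32.1% of all genes, and Vcl is at -2.00.

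The next comparisons asked how the knockouts differed from WT within a tissue. Over the 4 comparisons, 1 call was made among the members, Itgb7 in bone marrow of STAT6-KO mice, where it was lower. In spleen, Itgad had the largest estimated differences, higher in both knockouts, without passing the threshold.

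Itgb7 in bone marrow was 2.37 in WT controls and 3.64, 3.06 and 3.79 at 1, 2 and 4 weeks after MI. In HDC-KO it was 2.16, 1.68, 1.65 and 2.22 in the same order, and in STAT6-KO it was 1.43 in controls, 1.44 at 2 weeks and 2.20 at 4 weeks. All 7 knockout arrays lay below all 4 WT arrays, and the gap was smallest in controls of HDC-KO. With time point in the model the STAT6-KO difference was -1.50 (SE 0.29, limma adjusted p = 0.0355, 2.82-fold lower), where 4.61% of 27090 genes passed. Leaving out any 1 time point, or fitting WT and STAT6-KO alone, took this call away, with estimates of -1.69 to -1.39 and limma adjusted p of 0.0520 to 0.247. The HDC-KO difference was -1.28 (SE 0.26, limma adjusted p = 0.104), where 0.443% of genes and 0 of 9 members passed (limma, with 3 members at an unadjusted p under 0.05, against 21.2% of all genes). It passed without the controls (-1.64, limma adjusted p = 0.0273), where 393 of 26827 genes passed, against 120 of 27090 with them. Over 14 alternatives the HDC-KO estimate was -1.64 to -1.06, with adjusted p by limma or a t-test of 0.0273 to 0.375. Arrays did not overlap for 14.0% of genes between STAT6-KO and WT bone marrow and for 8.04% between HDC-KO and WT.

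Itgb7 in spleen differed less. It was 3.16 in WT controls and 4.09, 4.06 and 4.12 after MI, 3.69, 3.79 and 3.47 in HDC-KO after MI, and 3.11, 2.80, 3.33 and 3.59 in STAT6-KO. After MI, the 6 knockout arrays lay below the 3 WT arrays, as 7.20% of genes did in either direction, while the WT control was among the STAT6-KO values. The differences were -0.34 (SE 0.24, limma adjusted p = 0.433) in HDC-KO and -0.65 (SE 0.21, limma adjusted p = 0.129) in STAT6-KO, and the latter was -0.74 without the doubtful array.

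Itgad in spleen was 4.82 in WT controls and 3.30, 3.41 and 3.45 at 1, 2 and 4 weeks after MI. In HDC-KO it was 4.71, 4.38 and 5.14 after MI, and in STAT6-KO it was 5.06, 5.03, 4.92 and 4.91 from control to 4 weeks. After MI, all 6 knockout arrays were above all 3 WT arrays, where 7.20% of genes did not overlap in either direction. In controls the WT value was 0.25 below that of STAT6-KO, so that the 4 STAT6-KO arrays lay above the 4 WT arrays, where 5.66% of genes did not overlap. The fitted difference was 1.19 (SE 0.29, limma adjusted p = 0.0699) in HDC-KO and 1.24 (SE 0.26, limma adjusted p = 0.0552) in STAT6-KO. Of the 26472 genes tested, 2.80% passed for HDC-KO and 1.95% for STAT6-KO, and 0 of 9 members did (limma, with 3 and 2 members at an unadjusted p under 0.05, against 22.6% and 22.9% of all genes). Without the control time point both knockouts passed for Itgad, at 1.36 (limma adjusted p = 0.0205) and 1.57 (limma adjusted p = 0.0167). This setting leaves out the WT control of 4.82, and 1289 and 964 of 26247 genes then passed, against 742 and 517 of 26472. Over 15 alternatives the HDC-KO estimate was 0.96 to 1.36, with adjusted p by limma or a t-test of 0.0204 to 0.957. The STAT6-KO estimate was 1.06 to 1.57, with adjusted p by limma or a t-test of 0.0167 to 0.472. Without the doubtful STAT6-KO spleen array of 4 weeks, the estimates were 1.19 and 1.25, and the genes called in STAT6-KO spleen fell from 517 to 215.

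The macrophage genes were set beside Itgad in spleen. Their summed level was 92.2 in WT controls and 50.7 to 56.0 in WT after MI, 55.0 to 100 in HDC-KO and 99.5 to 121 in STAT6-KO. The HDC-KO range overlapped that of WT after MI. Of the 8 genes, 1 passed in HDC-KO (Marco, 2.31 higher, limma adjusted p = 0.0494) and 0 in STAT6-KO, with medians of 0.74 and 1.08. Their part in the Itgad result was not tested. In bone marrow, Itgad was higher than WT by 0.69 in HDC-KO (SE 0.43, limma adjusted p = 0.372) and by 1.08 in STAT6-KO (SE 0.48, limma adjusted p = 0.239), with overlapping arrays.

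**Figure D4:**
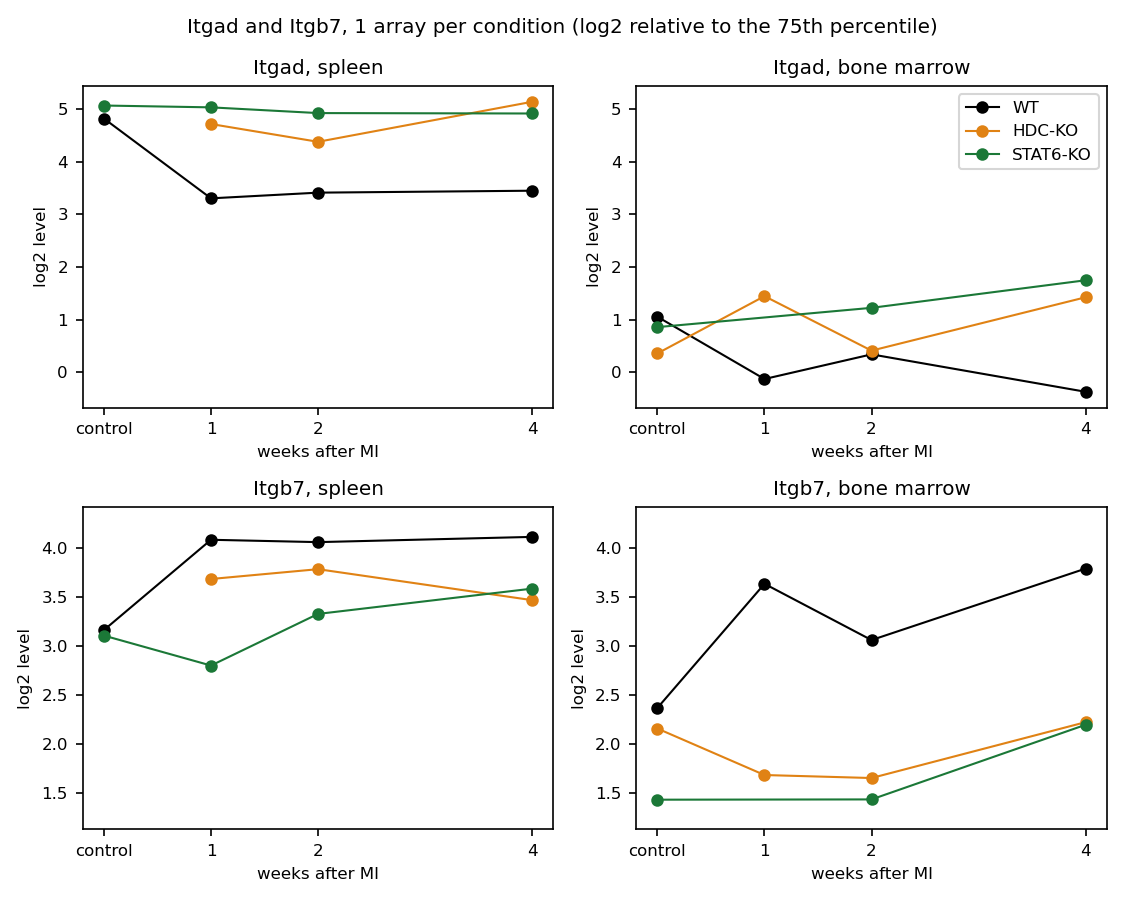
Levels of Itgad and Itgb7 (vertical axes, log2 relative to the 75th percentile) in controls and 1, 2 and 4 weeks after MI (horizontal axes), 1 array per point, with lines joining arrays of a genotype. In WT spleen Itgad is at 4.82 in the control and 3.30 to 3.45 after MI, and in bone marrow the WT line of Itgb7 lies above both knockouts.

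Itgam itself did not pass in any genotype comparison. In spleen it was 3.92, 4.83, 4.31 and 4.52 in WT from control to 4 weeks. The HDC-KO values after MI were 4.31, 3.56 and 3.87, and the STAT6-KO values were 4.23, 4.23, 4.11 and 3.52. The knockouts overlapped WT, each lower than WT at every time after MI. The differences were -0.53 (SE 0.24, limma adjusted p = 0.246) in HDC-KO and -0.37 (SE 0.22, limma adjusted p = 0.345) in STAT6-KO, and the latter was -0.18 (limma adjusted p = 0.647) without the doubtful array. The dimmest Itgam probe gave -1.09 in STAT6-KO spleen (limma adjusted p = 0.0541).

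In bone marrow the Itgam probes differed in sign. The brightest was 5.10, 5.68, 5.29 and 5.60 in WT and 5.85, 5.74 and 5.71 in the 3 STAT6-KO arrays, which all lay above WT, where 14.0% of genes did not overlap in either direction (0.43, SE 0.15, limma adjusted p = 0.160). The other 2 probes gave -0.33 and -0.54 for the same comparison. In HDC-KO bone marrow the brightest gave 0.11 and the others -0.30 and -0.57. No direction can be given for Itgam between genotypes in bone marrow.

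Itgb2 was lower than WT on each of the 14 knockout arrays set against WT at the same time. The differences were -0.55 (SE 0.20, limma adjusted p = 0.163) and -0.35 (SE 0.18, limma adjusted p = 0.293) in spleen of HDC-KO and STAT6-KO, and -0.34 (SE 0.12, limma adjusted p = 0.198) and -0.17 (SE 0.14, limma adjusted p = 0.523) in bone marrow. Without the doubtful array the STAT6-KO spleen difference was -0.41. All 4 were under 2-fold, and ranges of knockout and WT arrays overlapped in each. On its brightest probe, Itgb3 was higher in HDC-KO at each of 7 time points compared, by 0.44 in spleen (SE 0.16, limma adjusted p = 0.147) and 0.53 in bone marrow (SE 0.13, limma adjusted p = 0.131). Its 3 HDC-KO spleen arrays lay above the 4 WT arrays, as 8.30% of genes did in either direction, while the bone marrow arrays overlapped. The second Itgb3 probe was lower in HDC-KO at 4 of the same 7 time points, with estimates of 0.17 in each tissue (limma adjusted p = 0.796 and 0.596). In HDC-KO bone marrow, 2 of the 7 platelet genes passed (Gp1ba, 1.09, and Gp9, 1.08, both higher), where 0.443% of all genes did. The median of the 7 was 0.64 there, while in HDC-KO spleen 0 of 7 passed, with a median of -0.25. The part of these genes in the Itgb3 values was not tested. Itgal was lower in STAT6-KO bone marrow by a log2 difference of -0.60 (SE 0.18, limma adjusted p = 0.115) and by -0.65 on its second probe.

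Itgax, Itga4 and Itgb1 had differences between -0.67 and 0.29 in the 4 comparisons and did not pass. Among the other pathway genes, 2 passed, both in STAT6-KO bone marrow, where 4.61% of 27090 genes passed. They were 1 of 16 ligands tested and 1 of 19 downstream genes. Of the other subunits 0 of 15 passed there, of the activators 0 of 12 and of the inhibitors 0 of 5. Icam1, the main ligand of the beta-2 integrins, was lower by a log2 difference of -1.19 (limma adjusted p = 0.0155), and Src, a kinase downstream of integrins, was higher by 1.38 (limma adjusted p = 0.0169).

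**Figure D5:**
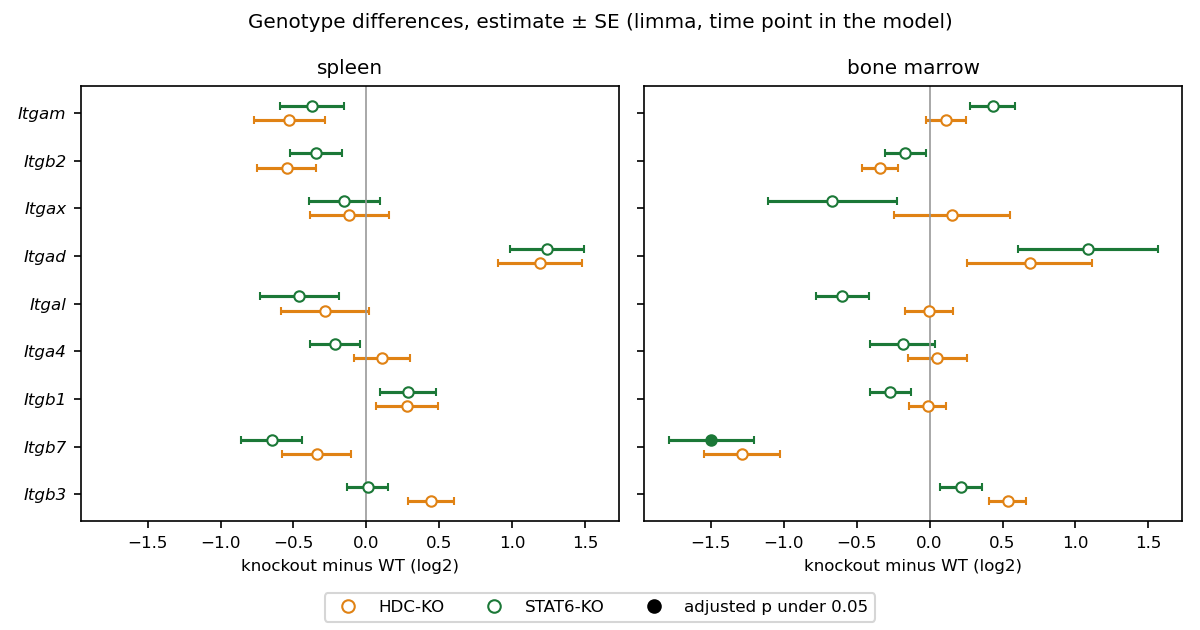
Knockout minus WT estimate ± SE (horizontal axes, log2) of the 9 members in spleen and bone marrow, with HDC-KO in orange and STAT6-KO in green. The single filled point is Itgb7 in STAT6-KO bone marrow at -1.50, and Itgad in spleen is at 1.19 and 1.24.

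Tests of the tissue difference between genotypes asked whether spleen and bone marrow responded alike to the knockouts. For Itgam, spleen minus bone marrow was -1.18, -0.85, -0.99 and -1.08 in the 4 WT pairs and -2.19 to -1.46 in the 6 knockout pairs. For Itgb7 it was 0.32 to 1.00 in WT and 1.25 to 2.13 in the knockouts. WT and knockout pairs did not overlap for these 2 members, as for 2.18% of all genes. The change of the difference was -0.70 (SE 0.24, limma adjusted p = 0.222) in HDC-KO and -0.79 (SE 0.24, limma adjusted p = 0.192) in STAT6-KO for Itgam. For Itgb7 it was 1.15 (SE 0.29, limma adjusted p = 0.112) and 1.01 (SE 0.29, limma adjusted p = 0.172). By limma 0 of 9 members passed (2 in each comparison at an unadjusted p under 0.05, against 14.9% and 13.7% of all genes), where 0.991% of genes passed for HDC-KO and 0.347% for STAT6-KO. Without the doubtful array the STAT6-KO changes were -0.60 for Itgam and 1.14 for Itgb7, and the genes called for STAT6-KO fell from 96 to 2. On the second Itgam probe the changes were -0.24 and 0.01, and on the third -0.11 and -0.40.

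The last comparisons set the mean of the 3 times after MI against control. By limma 0 of 9 members passed in spleen, where 0.00378% of genes passed, and 0 of 9 in bone marrow, where 0% did. At an unadjusted p under 0.05 there were 1 member of 9 in spleen, against 15.7% of all genes, and 2 of 9 in bone marrow, against 16.7%. In spleen the member was Itgad (-0.77, SE 0.30, limma adjusted p = 0.276), with the same estimate without the doubtful array. Against its own control, it differed by -1.52 to -1.37 in WT and by -0.15 to -0.03 in STAT6-KO, and the HDC-KO control was not analysed here. In bone marrow the members were Itgb2 (0.49, SE 0.12, limma adjusted p = 0.190) and Itgal (0.55, SE 0.16, limma adjusted p = 0.207). Itgb2 was above its own control on each of 8 bone marrow arrays after MI, by 0.13 to 0.76, and on each of 6 spleen arrays, by 0.10 to 0.74.

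The order of the levels over genotype and tissue was led by STAT6-KO bone marrow for Itgam on its brightest probe (mean 5.77). HDC-KO (5.53) and WT bone marrow (5.42) followed, then WT (4.39), STAT6-KO (4.02) and HDC-KO spleen (3.91). Neighbours overlapped at each step except between WT bone marrow and WT spleen. The other Itgam probes were estimated below WT in bone marrow of both knockouts, so the order of genotypes there depends on the probe. All these means cover unlike times, without the HDC-KO spleen control and the STAT6-KO bone marrow MI 1 week array. Itgad ran from STAT6-KO spleen (4.98) through HDC-KO (4.74) and WT spleen (3.74) to STAT6-KO (1.27), HDC-KO (0.91) and WT bone marrow (0.22), and again the step between the tissues was the one without overlap. Itgb7 had WT bone marrow (3.22) among the spleen groups, between HDC-KO (3.65) and STAT6-KO spleen (3.21), above HDC-KO (1.93) and STAT6-KO bone marrow (1.69).

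The genes whose levels most resembled those of Itgam were sought among 14080 named genes above background on all 22 arrays. Over all arrays they were Padi4 (Pearson r 0.99), Ccdc125 (0.98), Tmem40 (0.98), Sqor (0.98) and Bmpr1a (0.98). After the mean of each tissue was subtracted they were Abhd5 (0.92), Tmem40 (0.92), Sqor (0.91), Padi4 (0.90) and Ccdc125 (0.90), and Itgb2 ranked at 904. Itgb1 lay opposite to Itgam on both measures, with r of -0.93 and -0.58. Itgad and Itgb7 ran opposite to each other within tissues, with r of -0.71, the lowest among the pairs of members. Genotype was not subtracted, so this value includes the genotype differences of both genes given above. These values describe 22 arrays that share slides and scaling.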

How the data were processed

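Cy3-labelled RNA of 24 samples was hybridised to one-colour Agilent arrays. The authors scanned them and deposited Feature Extraction 11.0.1.1 tables, in which the processed signal is an intensity on a linear scale, background-subtracted and spatially detrended, with no normalization between arrays. Spots marked as outliers (3055 over 22 arrays) were left out, and 0 were saturated. Each log2 signal was set relative to its array's 75th percentile, and probes were named through their RefSeq transcript (27234 of 39429 probes). The brightest probe stood for a gene, and a fit kept probes that were well above background on at least 2 of its arrays. The R packages limma 3.58.1 and data.table (version 1.17.8) ran under R 4.3.3, and limma was fitted across all genes with Benjamini-Hochberg adjustment. The pair was a block for tissue. Genotype and time point were additive terms for the genotype and MI comparisons, and genotype alone was the term for the tissue differences of the pairs. The error was thus the spread of the pair differences, or what was left between single arrays after genotype and time point. The number of arrays limits the precision. Exact sign-flip tests, summaries and plots used Python 3.11.15, numpy 2.4.6, pandas 2.3.3 and matplotlib 3.10.9. The fits were tested on simulated data. The alternatives were normexp background correction (offset 50), quantile normalization, other scalings, floors, filters, probes, blocks and tests, and leaving out each time point. The members and gene lists were chosen with earlier results of these data known. Named pathway genes were up to 4 per direction and list with the lowest adjusted p between tissues, and up to 2 in other comparisons. The authors' normalised output was not used here.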

Additional observations from a re-analysis of the deposited data

Results flagged for a closer look

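Of 45 sets of member values tested for a far sample, 4 were flagged. Chance flags about 1 set in 20 where the values are replicates. These sets held different time points, controls included, and shared arrays, so that rate cannot be applied to them. The WT spleen control stood apart from the 3 WT spleen arrays after MI for Itgad (4.82, above them) and for Itgb7 (3.16, below them). The HDC-KO bone marrow MI 1 week array was low for Itgb1 (-0.095). The WT MI 2 weeks pair had the smallest spleen minus bone marrow difference of Itgb1 (0.27).

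Some members moved in opposite directions after MI in different genotypes or tissues, on every array of each, as read on the brightest probe of a gene. These differences were not tested, and each mean rests on 2 or 3 arrays against 1 control. In bone marrow, Itgam was above control by a mean of 0.42 in WT and 0.42 in HDC-KO and at -0.13 in STAT6-KO, where another Itgam probe was above control on both arrays (0.096 and 0.16). Itgax was at -0.65 in WT and 1.65 in STAT6-KO bone marrow, and at -0.38 in WT and 0.84 in STAT6-KO spleen. Itgad was at -1.11 in WT and 0.74 in HDC-KO bone marrow, and in STAT6-KO it was at 0.63 in bone marrow and -0.11 in spleen. Itgb1 was at 0.29 in STAT6-KO and -0.077 in HDC-KO bone marrow, and at 0.30 in STAT6-KO and -0.50 in WT spleen. The second Itgb1 probe had both signs in STAT6-KO spleen (-0.46 to 0.22) and in HDC-KO bone marrow (-0.27 to 0.086).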

How the results depend on the processing

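Between the tissues, the same 8 of 9 members passed in each alternative and the direction of each member held, except that Itgb3 did not pass on its second probe (-0.26) and that 6 members, without Itga4 and Itgb1, passed the methods' t-test at its own threshold, which also asks for a fold change (8 by its Benjamini-Hochberg adjusted p alone). Counts of members called changed elsewhere. In HDC-KO spleen, 1 member passed (Itgad) with the 2 genotypes alone, and leaving out a time point gave 0 to 1. In STAT6-KO spleen, 1 passed (Itgad) with median scaling, with a floor on low signals, with probes above background on every array and by the methods' t-test at its own threshold (0 after Benjamini-Hochberg adjustment), and leaving out a time point gave 0 to 1. In HDC-KO bone marrow, 1 passed (Itgb7) by the methods' t-test (0 after adjustment), and leaving out a time point gave 0 to 1. In STAT6-KO bone marrow, 0 passed with the 2 genotypes alone, and leaving out any time point gave 0. The cause was not tested.

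Signs turned for Itgam. In HDC-KO bone marrow it was -0.25 as the mean over its probes and -0.57 and -0.30 on the other 2 probes. In STAT6-KO bone marrow it was -0.15, -0.54 and -0.33, and the STAT6-KO tissue difference was 0.0066 on the second probe. Over all genes, and leaving the t-test aside, the number called ranged from 11923 to 15185 for the tissues (15064 in the values reported), from 0 to 2604 for HDC-KO spleen (742), 4 to 964 for STAT6-KO spleen (517), 3 to 393 for HDC-KO bone marrow (120), 0 to 1489 for STAT6-KO bone marrow (1248), 0 to 514 (274) and 0 to 484 (96) for the tissue differences, and after MI from 0 to 2092 in spleen (1) and 0 to 40 in bone marrow (0). Median scaling moved the median of all genes in HDC-KO spleen from 0.06 to -0.10, and normexp moved that in STAT6-KO spleen from -0.06 to 0.27. With normexp the number called was 6 in HDC-KO spleen and 4 in STAT6-KO spleen. The doubtful STAT6-KO spleen array of 4 weeks was left out as an alternative chosen after seeing the data, and no count of members called changed, while the number of all genes called fell from 517 to 215 in STAT6-KO spleen, from 96 to 2 for the STAT6-KO tissue difference and from 1 to 0 after MI in spleen.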
